A study of Mus musculus with 6 samples.

Results

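The collagen crosslinking and processing enzymes described here are 10 genes of the 34590 gene symbols in the deposited count table. They were taken from the table by symbol, from a list made with earlier results of these data known. The list holds the 5 lysyl oxidases Lox, Loxl1, Loxl2, Loxl3 and Loxl4 and the lysyl hydroxylases Plod1 and Plod2. It also holds the prolyl hydroxylase subunit P4ha1, the collagen chaperone Serpinh1 and the procollagen enhancer Pcolce. All 10 were listed in the table and all 10 passed the filter on low counts, which left 17792 genes tested.

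Procollagen chains are made in the endoplasmic reticulum, where prolyl hydroxylases stabilize the triple helix, lysyl hydroxylases mark lysines for later crosslinks, and the chaperone Hsp47 (the product of Serpinh1) binds the folded helix. After export through COPII-coated carriers, the propeptides are cut off by proteases whose work on the C-terminal end is enhanced by Pcolce. Outside the cell, copper-dependent lysyl oxidases oxidize lysines of collagen and elastin so that fibrils become covalently crosslinked, and in the mammary gland this crosslinking is known to set the stiffness of the stroma around the ducts.

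Transcripts were profiled by RNA-seq in both inguinal glands (gland number 4) of 3 mice. Each WT host, numbered here mouse 1 to 3, carried WT.EGFP+ epithelium in the left gland and Adamts18-/-.EGFP+ epithelium in the right gland, after its own epithelium had been removed from the fat pad. The mutant allele carries an exon deletion in Adamts18, which encodes a secreted protease, both donor genotypes expressed EGFP from a chicken beta-actin promoter, and the host stroma was WT in every gland. Genotype and body side cannot be told apart, and the age of the hosts at harvest is not given in the sources used here.

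The total count was 54059023 to 71595924 reads in the WT glands and 53875123 to 63307129 reads in the Adamts18-/- glands. Mice 1, 2 and 3 had 252, 608 and 383 reads of Adamts18 on the WT side and 144, 295 and 202 on the mutant side (log2 fold change -0.83, unadjusted p = 0.00906, edgeR), a count that covers the whole gene and not the deleted exons alone. The labels name sorted GFP-positive mammary epithelial cells, but markers of other cell types were abundant. Expression is given as CPM (counts scaled to library size with TMM factors). The summed level of 10 adipocyte markers was 8396 to 20743 CPM and that of 12 fibroblast markers 7245 to 15983 CPM, against 1410 to 2685 CPM for 24 pan-epithelial genes. No marker on these 3 lists was at 0 in any library. The libraries are therefore called glands. In such mixed RNA, fewer cells of a type and less RNA per cell cannot be told apart.

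None of the 10 enzymes passed the test for a difference between genotypes, judged against the variation left once the mouse was accounted for. With the contralateral glands compared within each mouse (edgeR's quasi-likelihood test), 0 members were past the study's thresholds, a fold below 0.8 or above its reciprocal together with an unadjusted p under 0.05, against a background of 3.09% of all genes tested (1.85% lower and 1.24% higher in Adamts18-/- glands), and 0 had an unadjusted p under 0.05 at any fold, against 3.95%. With the Benjamini-Hochberg adjustment 0 genes of the whole table passed with this edgeR fit and with limma-voom, while 73 passed with DESeq2. DESeq2 and limma-voom each placed 1 member, Plod2, past the fold and unadjusted p thresholds, where they called 1.95% and 2.12% of all genes higher, and 0 members past an adjusted p of 0.05. The members' log2 fold changes ran from -0.12 (Loxl3) to 0.40 (Plod2), 4 of 10 were negative, and the median was 0.023 beside 0.00040 for all genes tested. The WT and Adamts18-/- ranges of CPM overlapped for each of the 10 genes, while 4.88% of all tested genes had ranges that did not overlap.

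**Figure D1:**
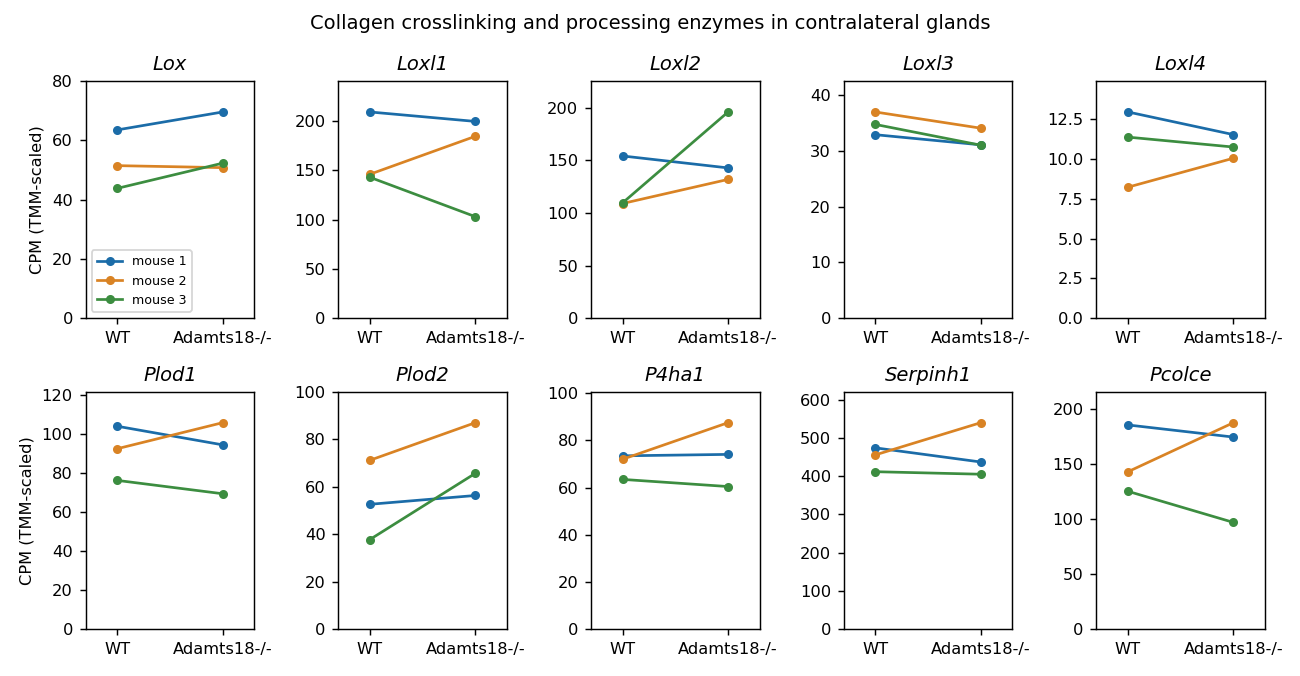
CPM (TMM-scaled, linear axis from 0) of each enzyme in the WT and Adamts18-/- glands, with a line joining the contralateral glands of each mouse. The lines of the 3 mice run in different directions for most genes, and for Plod2 alone all 3 run upward.

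The spread lay mainly between mice (host, donor and experiment together), as it did for most genes. For 9 of 10 members the mouse took a larger share of the variance of log2 CPM than the genotype did (86.2% of all tested genes), with a median share of 76.2% for the mouse and 3.11% for the genotype, beside 67.4% and 5.90% over all genes tested. Loxl2 was the exception, with 23.2% for the mouse, 32.6% for the genotype and 44.2% left over. The direction of the difference varied between the 3 pairs. In mouse 1, 3 members were higher in the Adamts18-/- gland and 7 were lower, and the log2 differences stayed between -0.17 and 0.13. In mouse 2, 8 were higher and 2 were lower, with a median of 0.28 and a highest value of 0.39. In mouse 3, 3 were higher and 7 were lower, and the differences spread widest, from -0.47 for Loxl1 to 0.84 for Loxl2. Over all genes tested the median difference was between -0.0097 and -0.0047 in each of the 3 mice.

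**Figure D2:**
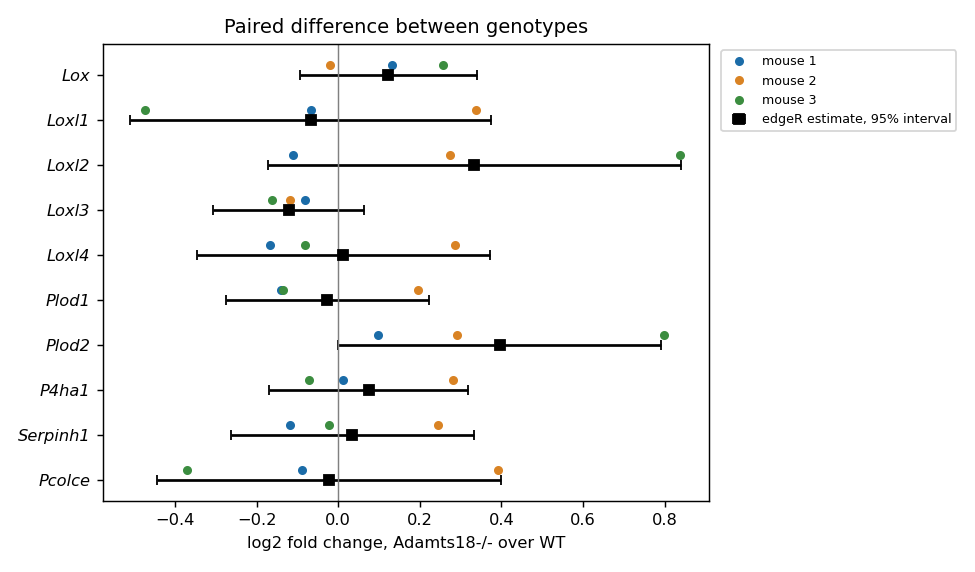
Log2 fold change of Adamts18-/- over WT glands for each enzyme. Black squares and bars are the edgeR estimate with its 95% interval, and coloured points are the 3 mice. Each interval includes 0, and that of Plod2 reaches from -0.00094 to 0.79.

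Among the lysyl oxidases, the founding member Lox (chromosome 18, 52516067 to 52529867, GRCm38) stood at 63.5, 51.5 and 43.8 CPM on the WT side of mice 1, 2 and 3 and at 69.6, 50.8 and 52.3 CPM on the Adamts18-/- side, the order used for each gene. The level was highest in both glands of mouse 1, and the contralateral glands of mouse 2 were nearly level. The log2 fold change of Lox was 0.12 with a 95% interval of -0.094 to 0.34. Loxl1 (chromosome 9, 58287738 to 58313186), best known for crosslinking elastin, was at 209, 146 and 143 CPM in WT glands and 199, 184 and 103 CPM in Adamts18-/- glands. Its mutant gland was higher in mouse 2 and lower in mouse 3, and the log2 fold change was -0.067 (interval -0.51 to 0.37).

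Loxl2 (chromosome 14, 69609068 to 69695834), an oxidase of the branch with scavenger receptor domains that acts on basement membrane collagen IV, had the widest difference in a single mouse. It was at 154, 109 and 110 CPM in WT glands and at 143, 132 and 196 CPM in the Adamts18-/- glands. The mutant gland of mouse 3 was the highest of the 6 and the mutant gland of mouse 1 lay below its partner. The estimate of 0.33 (standard error 0.19) did not pass the test (unadjusted p = 0.149, edgeR). It was 0.090 with mouse 3 left out, and 0.56, past the thresholds, with mouse 1 left out. Loxl3 (chromosome 6, 83034173 to 83052562), of the same branch, was at 32.9, 36.9 and 34.7 CPM in WT and 31.1, 34.0 and 31.0 CPM in Adamts18-/- glands. It was lower in the mutant gland of all 3 mice, as were 12.7% of all genes tested, by -0.082, -0.12 and -0.16 on the log2 scale, but the interval of its log2 fold change ran from -0.31 to 0.064. With scaling to the pan-epithelial genes the value for Loxl3 was 0.31, where the median of all genes was 0.44. Loxl4 (chromosome 19, 42593982 to 42612813), the rarest of the 5, was at 12.9, 8.23 and 11.4 CPM in WT and 11.5, 10.05 and 10.7 CPM in Adamts18-/- glands, a log2 fold change of 0.012 (interval -0.35 to 0.37).

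Of the lysyl hydroxylases, Plod1 (chromosome 4, 147909753 to 147936767), which hydroxylates lysines of the triple helix, was at 104, 92.4 and 76.2 CPM in the WT glands and 94.4, 106 and 69.3 CPM in the Adamts18-/- glands. Only the mutant gland of mouse 2 was above its partner, and the log2 fold change was -0.027 (interval -0.28 to 0.22). Plod2 (chromosome 9, 92542223 to 92608428), which hydroxylates lysines of the telopeptides and thereby favours stable crosslinks, was at 52.6, 71.2 and 37.7 CPM in WT and 56.3, 87.1 and 65.7 CPM in Adamts18-/- glands. It was the 1 member higher in the mutant gland of all 3 mice, as were 10.8% of all genes tested, and the log2 differences were 0.098, 0.29 and 0.80. The estimate was 0.40 (standard error 0.15, a fold of 1.32), with an unadjusted p of 0.0504 and an adjusted p of 0.988 (edgeR with Benjamini-Hochberg adjustment), so Plod2 did not pass the test. By unadjusted p it stood at place 708 among the 17792 genes. Without mouse 3 the log2 fold change was 0.20, and without mouse 1 it was 0.54 and past the thresholds, where 1.03% of all genes were called higher. Plod2 also passed without a filter on low counts, beside 1.43% of all genes, and with scaling to fibroblast genes, beside 3.34%.

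P4ha1 (chromosome 10, 59323296 to 59373304), a catalytic subunit of the prolyl hydroxylase, was at 73.5, 72.0 and 63.5 CPM in the WT glands and 74.1, 87.5 and 60.4 CPM in the Adamts18-/- glands. Mouse 2 gave the only difference above 0.1 on the log2 scale, and the log2 fold change was 0.074 (interval -0.17 to 0.32). Serpinh1 (chromosome 7, 99345376 to 99353239) was at 474, 456 and 412 CPM in WT and 437, 540 and 405 CPM in Adamts18-/- glands. These values place it as the most evenly expressed member after Loxl3, with a highest to lowest ratio of 1.33 over the 6 glands against 1.19 for Loxl3 and 2.31 for Plod2. Its log2 fold change was 0.035 (interval -0.26 to 0.33). Pcolce (chromosome 5, 137605103 to 137613784) was at 185, 143 and 125 CPM in WT and 174, 187 and 96.7 CPM in Adamts18-/- glands. The mutant gland was higher in mouse 2 and lower in mouse 3, as for Loxl1, and the log2 fold change of Pcolce was -0.022 (interval -0.44 to 0.40).

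These intervals set what the 3 pairs can show. The upper bound of the fold change was between 1.05 (Loxl3) and 1.79 (Loxl2) and the lower bound between 0.703 (Loxl1) and 0.999 (Plod2), so that differences inside these bounds were not excluded for any of the genes. Counting error was small beside the spread between mice, since the lowest count of any member in any gland was 504 reads, for Loxl4.

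Levels were compared between genes per kilobase of annotated exon (GENCODE M21 on GRCm38). Serpinh1 was the most abundant, at 183 ± 13.2 CPM per kilobase in WT and 189 ± 28.9 in Adamts18-/- glands (SD, n = 3 each), and it was above the next gene in all 6 glands. Loxl1 followed at 50.3 ± 11.3 and 49.2 ± 15.8 CPM per kilobase, then Pcolce at 39.5 ± 8.09 and 39.9 ± 12.8. Loxl2 was at 23.0 ± 4.79 and 29.0 ± 6.34, P4ha1 at 16.9 ± 1.31 and 18.0 ± 3.30, and Plod1 at 13.4 ± 2.06 and 13.3 ± 2.76. Loxl1 was above Pcolce in all 6 glands, Pcolce above Loxl2 in 5, Plod1 above Lox in 4, and Lox above Plod2 in 3, so that the order of Plod1, Lox and Plod2 was not fixed across glands. Loxl3 (7.57 ± 0.443 and 6.96 ± 0.378) and Loxl4 (2.58 ± 0.570 and 2.56 ± 0.176) came last. With the length of the longest transcript instead, Pcolce was placed above Loxl1, Plod1 above P4ha1, and Plod2 above Lox.

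**Figure D3:**
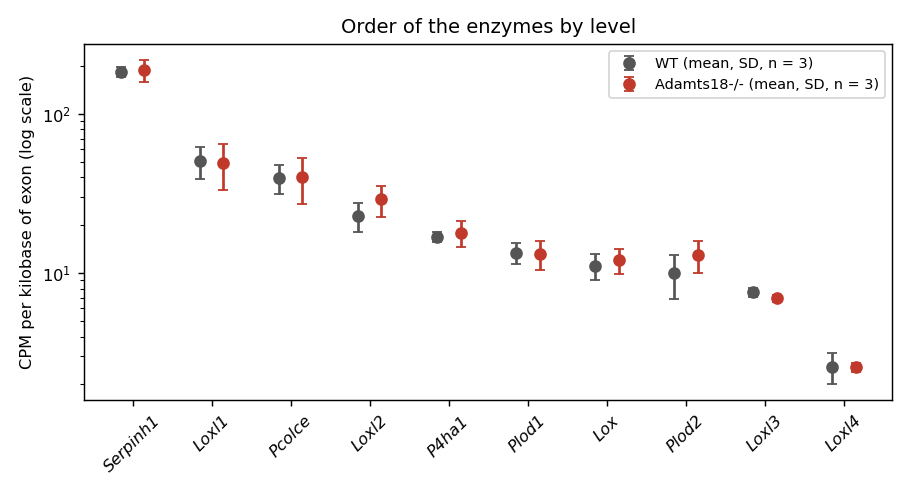
CPM per kilobase of exon (log axis) of the 10 enzymes, ordered by their mean over all 6 glands, with points and bars for the mean and SD of 3 WT and 3 Adamts18-/- glands. Serpinh1 lies highest, near 186 CPM per kilobase, and Loxl4 lowest, near 2.57.

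Some members kept similar proportions to each other across the glands. These ratios of read counts within a library do not depend on scaling, and the genes set against each other were chosen after their values were seen. The ratio of Pcolce to Loxl1 was 0.886, 0.978 and 0.875 in WT glands and 0.873, 1.02 and 0.940 in the mutant glands. The ratio of P4ha1 to Serpinh1, the closest pair of members, lay between 0.149 and 0.169. Among 14715 genes with at least 1 CPM on average, the gene whose pattern over the 6 glands was most like that of Serpinh1 was Sec24d, which encodes a cargo-binding subunit of the COPII coat used for procollagen export. The likeness was measured as the root mean square difference of log2 CPM after each gene was centred on its own mean, and it was 0.011 for Sec24d, against 0.031 for the next gene, Yif1b, and 0.058 for P4ha1, at place 61. The ratio of Sec24d to Serpinh1 reads was 0.174, 0.172 and 0.176 in the WT glands and 0.175, 0.172 and 0.174 in the Adamts18-/- glands, a highest to lowest ratio of 1.02. With mouse 1, 2 or 3 left out, Sec24d was at place 3, 6 and 2 among the 14715 genes, whereas P4ha1 was at place 113, 1238 and 197. Pcolce was at place 40 in likeness to Loxl1, and at place 125, 60 and 467 with mouse 1, 2 or 3 left out. A closest gene is found for any pattern, and for the other members it lay at 0.016 (Plod1) to 0.13 (Plod2, with Adam12).

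The RefSeq promoter table of GRCm38.p6 held 5 of the 10 members (Loxl4, Plod1, P4ha1, Serpinh1 and Pcolce). The promoters of Serpinh1, P4ha1 and Sec24d, from 250 bases before to 50 bases after the start of transcription, are shown because these genes had the narrowest ratios given above, although that of P4ha1 was not a close likeness without mouse 2. Each holds the motif ACGTG, a form of the core of the site bound by hypoxia-inducible factor, on 1 strand or the other (CACGT). Capitals mark ACGTG. The other form of the core, GCGTG, was neither counted nor marked, and it also occurs in the sequences shown for P4ha1 and Sec24d. They lie on the minus strand at chr7:99353190-99353489 (Serpinh1) and on the plus strand at chr10:59323046-59323345 (P4ha1) and chr3:123267246-123267545 (Sec24d).
Serpinh1: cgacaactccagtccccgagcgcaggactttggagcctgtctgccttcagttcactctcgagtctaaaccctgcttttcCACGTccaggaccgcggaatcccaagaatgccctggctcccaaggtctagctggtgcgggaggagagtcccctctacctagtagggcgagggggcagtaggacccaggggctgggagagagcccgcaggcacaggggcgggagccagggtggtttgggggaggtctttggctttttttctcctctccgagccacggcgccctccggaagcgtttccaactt
P4ha1: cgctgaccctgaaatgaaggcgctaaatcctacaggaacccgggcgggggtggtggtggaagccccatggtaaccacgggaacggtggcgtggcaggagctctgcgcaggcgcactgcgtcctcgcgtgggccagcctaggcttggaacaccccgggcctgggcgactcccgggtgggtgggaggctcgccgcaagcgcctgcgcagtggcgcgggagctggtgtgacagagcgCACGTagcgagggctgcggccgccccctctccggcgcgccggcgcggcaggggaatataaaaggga
Sec24d: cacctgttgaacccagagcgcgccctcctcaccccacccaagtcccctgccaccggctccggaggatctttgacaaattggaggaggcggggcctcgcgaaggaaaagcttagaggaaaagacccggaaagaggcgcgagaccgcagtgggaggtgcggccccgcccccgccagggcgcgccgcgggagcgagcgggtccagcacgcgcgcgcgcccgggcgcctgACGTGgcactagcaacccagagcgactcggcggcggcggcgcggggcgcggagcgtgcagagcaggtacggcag
The first base of the motif lies 171, 16 and 24 bases before the start in Serpinh1, P4ha1 and Sec24d. ACGTG was found in 2 of the 5 member promoters and in 19.6% of all 32851 promoters in the table. These counts do not cover GCGTG, so they do not tell which promoters lack the core. The palindrome GAANNTTC, the core of a heat shock element, occurred in 1 of the 5, Plod1, and in 7.86% of all promoters. A match of letters is a description and not a binding site.

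Loxl2 did not keep its proportion to Loxl1 in 1 gland. The ratio of Loxl2 to Loxl1 reads was 0.738, 0.747 and 0.767 in WT glands and 0.716 and 0.715 in the mutant glands of mice 1 and 2, but 1.90 in the mutant gland of mouse 3. Plod2 over Plod1 was also highest there, at 0.948, against 0.496 to 0.823 in the other glands. The fibrillar collagen gene Col3a1 was at place 6 among the 14715 genes in likeness to Loxl2 (0.12), with log2 differences of -0.0048, 0.42 and 0.80 in mice 1, 2 and 3, but without mouse 3 it was at place 1960. The genes nearest to Loxl2 were Hcn4 (0.033) and Dock11 (0.070), and for Loxl1 they were Heg1 (0.038) and Mxra8 (0.038). The mutant gland of mouse 3 also had the lowest summed level of the 12 fibroblast markers, 7245 CPM against 9881 to 15983 in the other glands. Gsn alone gave 5166 CPM of that sum, and not every marker was lowest there. Fap, Mfap5, Dpp4 and Thy1 were lowest in the WT gland of mouse 2, and Thy1 was highest in the mutant gland of mouse 3, at 186 CPM. That mutant gland of mouse 3 had the highest summed level of 10 lymphocyte markers, 1391 CPM against 126 to 441. The part of these cell types in the values of Loxl2 and Plod2 was not tested.

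**Figure D4:**
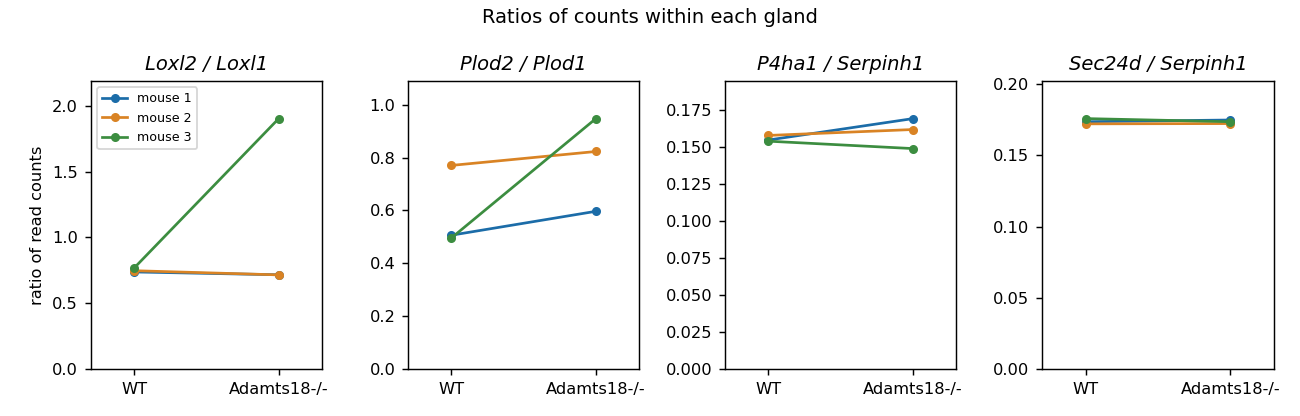
Ratios of read counts between genes within each gland (linear axes from 0), with a line joining the contralateral glands of each mouse. Loxl2 to Loxl1 is near 0.74 in 5 glands and 1.90 in the mutant gland of mouse 3, and Sec24d to Serpinh1 stays between 0.172 and 0.176.

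No other listed gene for collagen processing passed the thresholds. Of 28 other genes for procollagen modification, folding, export, propeptide removal and crosslinking, 27 were in the table and 26 were tested. None passed in either direction (0 lower and 0 higher with edgeR and with DESeq2, and 0 at an unadjusted p under 0.05 with edgeR), beside the background of 1.85% and 1.24%. Their median log2 fold change was 0.020, with 12 of 26 negative. The 2 most abundant were P4hb, the protein disulfide isomerase subunit of the prolyl hydroxylase (531 and 546 CPM in WT and Adamts18-/- glands, log2 fold change 0.040), and Tgm2, a transglutaminase (391 and 365 CPM, -0.11). The procollagen proteases Bmp1 and Adamts2 had log2 fold changes of 0.051 and -0.028, and Plod3, the third lysyl hydroxylase, -0.040. The lowest and highest values were those of Pcolce2 (-0.34), the paralog of Pcolce, which differed by 0.14, 0.28 and -1.49 in mice 1, 2 and 3, and of the prolyl hydroxylase subunit P4ha3 (0.33), at 2.66 and 3.28 CPM.

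The listed substrates did not pass either. The list leaves out other collagen chains, and the paper's own pathway analysis reports collagens and laminins among the affected matrix genes. Of 12 collagen and elastin genes, 0 were lower and 0 higher by the thresholds (1 higher with DESeq2, and 0 at an unadjusted p under 0.05 with edgeR), with a median log2 fold change of 0.16 and 5 of 12 negative. Col3a1 and Col1a2, the most abundant, had log2 fold changes of 0.41 and 0.24. The ratio of Serpinh1 to Col1a1 reads was 0.349, 0.420 and 0.339 in the WT glands and 0.331, 0.383 and 0.283 in the mutant glands, lower in the mutant gland of each mouse. This ratio was chosen after its values were seen, and with 3 pairs no exact test of signs could pass.

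Of 18 genes whose products bind collagen, elastin or a lysyl oxidase, 0 passed in either direction with edgeR (0 at an unadjusted p under 0.05, and 1 higher with DESeq2), with a median of -0.0089. The most abundant, Fn1 (fibronectin) and Dcn (decorin), had log2 fold changes of 0.24 and -0.11, and Postn, which encodes periostin, a matrix protein that promotes lysyl oxidase activation, differed by 0.21, 0.082 and 1.44 in mice 1, 2 and 3. Of 16 hypoxia-inducible genes, 2 rose by the thresholds and 0 fell, beside the background of 1.24% and 1.85%: Pgk1, a glycolytic enzyme (114 and 149 CPM, log2 fold change 0.38), and Car9, a carbonic anhydrase at the low level of 0.665 and 0.997 CPM (0.64). With mouse 2 left out the list had 0 genes past the thresholds and with mouse 3 left out it had 3, and the median of the list was -0.00088. Ldha and Pfkfb3, the most abundant, had values of 0.15 and 0.068.

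Some epithelial markers were lower in Adamts18-/- glands. Of 24 pan-epithelial genes 7 were lower, of 10 myoepithelial genes 9 were lower, and of 10 luminal genes 4 were lower in Adamts18-/- glands, with 0 higher on these lists, beside the background of 1.85% lower. In mouse 1 the median differences of the pan-epithelial, luminal and myoepithelial genes were 0.070, 0.055 and -0.29 on the log2 scale. Lower in all 3 mice were 8 of 24 pan-epithelial, 8 of 10 myoepithelial and 3 of 10 luminal genes, beside 12.7% of all genes tested. Of the 12 fibroblast, 10 adipocyte, 10 endothelial, 10 macrophage, 10 lymphocyte, 10 skeletal muscle and 8 Schwann cell genes 0 passed in either direction (1 endothelial gene had an unadjusted p under 0.05 with edgeR), and of 8 pericyte genes 1 was higher. This was Des, at 198 and 203 CPM in the mutant glands of mice 1 and 2 and 36.1 to 62.4 CPM in the other glands. Skeletal muscle markers summed to 12734 and 12802 CPM in the mutant glands of mice 1 and 2, against 339 to 3223 CPM in the other glands. The part of these differences in the members' values was not tested. Scaling to the pan-epithelial genes raised the median of all genes by 0.44 and that of the members by about as much, to 0.46, with 0 of 10 members negative, and 2 members, Plod2 and Loxl2, then passed the fold and unadjusted p thresholds, beside 12.3% of all genes called higher under that scaling.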

How the data were processed

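RNA-seq was performed on 6 libraries with single-end reads of 85 bp. The authors deposited whole-number counts per gene symbol, without normalization. The submitters' processing notes name bcl2fastq 2.18, TopHat2 2.0.11, featureCounts 1.6.2, edgeR and the build mm9. The annotation and the strand setting are not given in the sources used here. Coordinates and lengths are those of GENCODE M21 on GRCm38, a different build, and the lengths serve as estimates. 0 columns belong to other samples.

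Samples were grouped by their titles. The test was edgeR 4.0.16's quasi-likelihood test (R 4.3.3) after filterByExpr and TMM. The mouse entered as a block. Adjustment was over 17792 genes. The pairing comes from the labels. Deviations from the group means correlated within mice 1, 2 and 3 at 0.522, 0.519 and 0.651. A prior count of 2 was added for log2 CPM, and intervals are 95%. The fit was tested on simulated data.

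The members and lists were chosen with earlier results of these data known. Named were the members, the targeted gene, genes of a list past the thresholds or its 2 most abundant, and the 3 genes most like each member. Of marker lists only counts and sums are given, except for Gsn, Thy1, Fap, Mfap5, Dpp4 and Des, and of the nearest genes only some. Bmp1, Adamts2, Plod3, Pcolce2, P4ha3, Postn, Col1a1, Gsn, Thy1, Fap, Mfap5, Dpp4, Des and the rank of Col3a1 were added after their values were seen. Older symbols were used for 9 listed genes. Alternatives were no block, DESeq2 1.42.0, limma-voom (limma 3.58.1), other scalings and filters, no fold threshold and each mouse left out.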

Additional observations from a re-analysis of the deposited data

How the results depend on the processing

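Of 120 log2 fold changes of the members under 12 alternatives, 93 kept their direction and their side of the thresholds, 8 newly passed and 19 turned. No member had an adjusted p under 0.05 under any of them, and the smallest was 0.178 (scaling to pan-epithelial genes). Lox, Loxl2 and Plod2 were positive under all 12. Plod2 passed the fold and unadjusted p thresholds under 6 alternatives and Loxl2 under 2, so that the members higher in Adamts18-/- glands, 0 with edgeR, were 1 with DESeq2 (1.95% of all genes were called higher), 1 with limma-voom (2.12%), 1 without a filter (1.43%), 1 with scaling to fibroblast genes (3.34%), 2 with scaling to pan-epithelial genes (12.3%), and 0 to 2 with a mouse left out (2 without mouse 1, 1.03%). Without the replicate block the count was 0, and it changed no member's call, but Adamts18 no longer passed (log2 fold change -0.90), nor did it with scaling to pan-epithelial genes (-0.39) or without mouse 2 (-0.72). Among the 4 pathway lists, 1 hypoxia-inducible gene passed without the block, not 2, and the other counts were the same. Over all genes, 330 lower and 220 higher calls became 125 and 218 without the block, 299 and 347 with DESeq2, 350 and 377 with limma-voom, 416 and 352 without a filter, 103 and 594 with fibroblast scaling and 38 and 2192 with pan-epithelial scaling, and with a mouse left out they were 214 to 481 and 182 to 581. For the marker lists no alternative other than dropping the fold threshold was counted.

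Scaling to pan-epithelial genes moved the median of all genes by 0.44, and the values of Loxl1, Loxl3, Plod1 and Pcolce turned to 0.36, 0.31, 0.41 and 0.41, and with scaling to fibroblast genes (0.11 at the median) those of Loxl1, Plod1 and Pcolce turned to 0.044, 0.084 and 0.089. Fibroblast scaling used the summed counts of that list, of which Gsn held most in every gland. Loxl4 turned to -0.0094 without the block, -0.0022 with limma-voom, -0.012 with library size alone and -0.12 without mouse 2. Pcolce turned to 0.017 without the block, 0.012 without mouse 1 and 0.16 without mouse 3, Plod1 to 0.030 without mouse 1 and 0.036 without mouse 3, Loxl1 to 0.14 without mouse 3, and P4ha1 and Serpinh1 to -0.028 and -0.069 without mouse 2. With a mouse left out, the ranges were -0.27 to 0.14 for Loxl1, -0.12 to 0.10 for Loxl4, -0.14 to 0.036 for Plod1, -0.028 to 0.15 for P4ha1, -0.069 to 0.11 for Serpinh1 and -0.23 to 0.16 for Pcolce. The cause was not tested.

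For the other lists, scaling to pan-epithelial genes called 12.3% of all genes higher in Adamts18-/- glands. These included 3 of 26 other processing genes, 2 of 12 substrates, 2 of 18 binding partners and 3 of 16 hypoxia-inducible genes. With scaling to fibroblast genes they were 2 substrates, 2 binding partners and 1 hypoxia-inducible gene, beside 3.34% of all genes. With DESeq2 they were 1 of each of these 3 lists, beside 1.95%. With library size alone 1 binding partner was lower, as were 372 of all 17792 genes. With a mouse left out, 0 to 1 of the other processing genes and 0 to 3 hypoxia-inducible genes were higher. Of the binding partners, 0 to 2 were lower and 0 to 2 higher. Over all genes these fits called 214 to 481 lower and 182 to 581 higher, of 17383 to 17596 tested. Dropping the fold threshold changed no count of the members or these 4 lists, while 1 endothelial gene and 2 pericyte genes, not 0 and 1, then passed. All 30 genes most like a member were shared with a prior count of 0.5. With a mouse left out (chosen after seeing the data), the distance of Sec24d from Serpinh1 lay between 0.0074 and 0.012 and that of Col3a1 from Loxl2 between 0.055 and 0.14. Genotype and side stay confounded, and 3 pairs limit the precision.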
